A study of Mus musculus with 60 samples.

Results

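The set described here holds 35 immediate early genes, taken by name from the 21950 genes of a read count table made from mouse brain. The table covers mice with both copies of Adgrl3 altered (Adgrl3 -/-, also written Lphn3 -/-, called KO) and Adgrl3 +/+ mice (WT). Hippocampus, prefrontal cortex and striatum were sequenced, with 10 libraries per genotype and region and 60 in all. The labels' protocols speak of 12 animals per genotype, killed at postnatal ages of 65 to 76 days, whose brains were frozen and later dissected. Both genotypes had the same handling in the labels, and no stimulus, task or drug is named. The sources used here do not give strain, sex, the part of Adgrl3 that was altered, or the time of day or method of killing.

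Immediate early genes are transcribed within minutes of neuronal firing without new protein being made. Calcium and cyclic AMP signals reach the transcription factors CREB, SRF and MEF2, which already sit in the nucleus, and these switch on genes such as Fos, Egr1 and Arc. In brain tissue their RNA serves as a record of recent activity, and it also responds to handling, arousal and the way an animal is killed. The products include transcription factors (the Fos and Jun proteins that form AP-1, the Egr and Nr4a families, Npas4), synaptic and secreted proteins (Arc, Nptx2, Inhba) and brakes on the same signals (Dusp phosphatases).

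Library totals ran from 38985577 to 51387833 counted reads, and mitochondrial transcripts took 5.66% to 8.78% of them. Adgrl3 checked the genotype labels: KO libraries held 30.7 to 39.6 CPM (counts scaled by library size, with TMM factors) against 117 to 131 in WT hippocampus, 16.5 to 44.2 against 126 to 172 in prefrontal cortex and 32.5 to 46.9 against 144 to 176 in striatum. The groups did not overlap in any region. Markers checked the dissection: 7 striatal projection neuron genes summed to 4277 to 7085 CPM in striatum and to at most 504 CPM elsewhere, and 6 hippocampal neuron genes summed to 349 to 531 CPM in hippocampus and to at most 214 CPM elsewhere. Other lists separated less. Cortical excitatory neuron genes, 6 in number, summed to 2144 to 2441 CPM in prefrontal cortex. They summed to 1373 to 1706 CPM in hippocampus and to 417 to 1125 CPM in striatum. In hippocampus 6 choroid plexus genes summed to 52.0 to 2628 CPM in WT (median 1471) and to 37.5 to 3011 CPM in KO (median 413.6). In prefrontal cortex 5 olfactory bulb markers summed to 7.33 to 105 CPM in WT (median 52.4) and to 5.87 to 55.2 CPM in KO (median 8.28). In bulk tissue, fewer cells of a type and less RNA per cell cannot be told apart. No label says that libraries of a group came from separate animals, so p-values measure the spread between libraries.

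Of the 35 genes, 34 passed the filter on low counts. Fosl1, an AP-1 partner, did not: it had 235 reads in 60 libraries together and 0 reads in 6 of them. The reads of the others ran from 1574 (Maff) to 777388 (Arc). None of the 35 overlaps another gene of the table on its own strand, and Junb overlaps Prdx2 on the opposite strand. Per kilobase of gene span, the scale on which genes were compared with each other, Arc was highest in prefrontal cortex, at 129 CPM per kilobase, ahead of Egr1 at 76.6 and Jund at 67.8. In hippocampus Jund (56.4), Arc (46.2) and Jun (35.8) led, and in striatum Jund (71.8), Arc (59.2) and Egr1 (57.2). The span includes introns, so these values rank genes only roughly.

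Promoter sequences are shown for genes that moved together between libraries (Fos, Junb, Nr4a1, Npas4 and Dusp1) and for Inhba, which did not move with them. They come from RefSeq on build GRCm38.p6 and hold the 250 bases before the start site, 5′ to 3′ on the gene's strand. Capitals mark the cyclic AMP response element, the DNA letters that CREB binds, as the short element TGACG or its reverse complement CGTCA, or as the full element TGACGTCA, which holds both.
Fos, chr12:85473640-85473889, plus strand: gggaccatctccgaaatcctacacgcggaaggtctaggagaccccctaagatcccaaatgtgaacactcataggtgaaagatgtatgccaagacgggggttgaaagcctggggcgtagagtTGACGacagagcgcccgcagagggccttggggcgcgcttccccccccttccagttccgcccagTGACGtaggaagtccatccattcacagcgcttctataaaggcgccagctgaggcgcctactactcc
Junb, chr8:84978749-84978998, minus strand: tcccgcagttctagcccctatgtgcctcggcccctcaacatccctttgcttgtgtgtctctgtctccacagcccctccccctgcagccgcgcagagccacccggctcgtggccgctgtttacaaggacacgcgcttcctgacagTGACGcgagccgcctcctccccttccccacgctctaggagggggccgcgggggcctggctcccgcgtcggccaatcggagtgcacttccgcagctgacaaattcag
Nr4a1, chr15:101266596-101266845, plus strand: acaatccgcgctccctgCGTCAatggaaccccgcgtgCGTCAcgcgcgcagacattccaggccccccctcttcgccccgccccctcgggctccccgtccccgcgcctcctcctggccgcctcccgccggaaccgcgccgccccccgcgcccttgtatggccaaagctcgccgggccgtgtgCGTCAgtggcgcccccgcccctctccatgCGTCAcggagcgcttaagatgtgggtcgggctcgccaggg
Npas4, chr19:4989972-4990221, minus strand: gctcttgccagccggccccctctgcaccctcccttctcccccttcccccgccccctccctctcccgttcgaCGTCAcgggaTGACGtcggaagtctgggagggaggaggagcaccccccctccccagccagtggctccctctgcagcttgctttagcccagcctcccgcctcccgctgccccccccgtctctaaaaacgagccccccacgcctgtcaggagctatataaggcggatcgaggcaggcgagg
Dusp1, chr17:26508473-26508722, minus strand: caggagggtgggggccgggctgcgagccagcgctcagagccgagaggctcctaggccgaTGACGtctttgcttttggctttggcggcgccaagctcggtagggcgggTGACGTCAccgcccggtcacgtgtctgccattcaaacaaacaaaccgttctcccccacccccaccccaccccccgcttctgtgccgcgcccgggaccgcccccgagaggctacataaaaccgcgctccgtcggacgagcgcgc
Inhba, chr13:16011601-16011850, plus strand: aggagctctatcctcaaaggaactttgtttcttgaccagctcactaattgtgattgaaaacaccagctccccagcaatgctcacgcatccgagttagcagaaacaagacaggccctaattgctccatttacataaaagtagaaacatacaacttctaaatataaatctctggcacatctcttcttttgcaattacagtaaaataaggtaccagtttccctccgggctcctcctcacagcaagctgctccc

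The Fos sequence held 2 short elements, Junb 1, Nr4a1 4 and Npas4 2, while Dusp1 held 1 full element and 3 short ones, those inside the full element included. Inhba had no match in this window. RefSeq promoters, searched on both strands over the 250 bases before and 50 after the start, were matched by symbol for 27 of the 35 genes. Those unmatched were Arc, Dusp4, Egr1, Egr3, Fosl1, Ier2, Nptx2 and Sik1. A short element stood in 18 of the 27 (66.7%) and in 20.8% of the 32851 promoters of the mouse table. The full element stood in 3 (Btg2, Dusp1 and Maff; 11.1% against 1.79%) and a CArG box, the SRF binding motif, in 2 (Dusp5 and Srf; 7.41% against 1.63%). Each of the 27 genes entered once, by the start nearest its 5′ end. The mouse table counts every listed start of a gene, so the shares compare genes with starts. The printed genes do not stand for the whole set. Egr2 had no short element, and its mean Pearson r with Fos over the regions, described below, was 0.93. Rgs2 (0.25), Srf (0.35) and Maff (0.37) held a short element. Whether the element goes with movement was not tested. A match is a description of the letters and no evidence of binding.

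Levels by region came first, asked in WT mice. Prefrontal cortex had the highest mean level for 23 of the 35 genes, hippocampus for 8 and striatum for 4. For 17 genes the order was prefrontal cortex, then striatum, then hippocampus, and 27 of the 35 genes had the same order in KO mice. These counts of order were not made over all tested genes. With edgeR's quasi-likelihood test, calling a gene at a Benjamini-Hochberg adjusted p under 0.05 and an absolute log2 difference of at least 1, 20 of 34 genes differed between hippocampus and prefrontal cortex, 4 higher and 16 lower in hippocampus. Over all tested genes 10.1% were called in that contrast, 5.98% higher and 4.16% lower. Between striatum and prefrontal cortex 11 genes were called, 2 higher and 9 lower in striatum, where 11.6% of all tested genes were called, 7.07% higher and 4.54% lower. Between striatum and hippocampus 10 were called, 5 in each direction, against 10.2% of all tested genes, 5.12% higher and 5.06% lower. By adjusted p alone 29, 26 and 20 genes passed in these 3 contrasts, beside 68.5%, 71.5% and 66.6% of all tested genes. The median log2 difference of the 34 genes was -0.88 for hippocampus minus prefrontal cortex, -0.60 for striatum minus prefrontal cortex and 0.26 for striatum minus hippocampus. Medians over all tested genes were 0.02, 0.01 and -0.00.

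**Figure D1:**
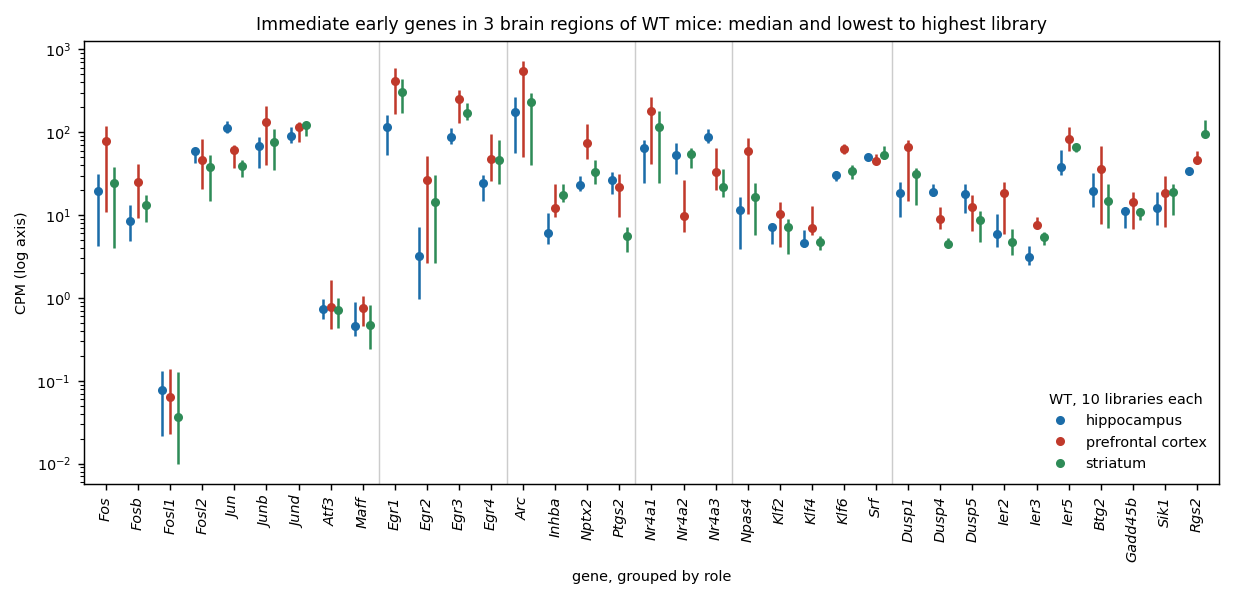
Level of each of the 35 genes in WT mice, in CPM on a log axis, with a point at the median and a line from the lowest to the highest of 10 libraries per region (a lowest value of 0, for Fosl1 in striatum, is drawn at 0.01). Genes are grouped by role, and the prefrontal cortex is highest for 23 of them by mean level.

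Among the AP-1 genes, Fos ran from 10.8 to 120.1 CPM in WT prefrontal cortex (median 79.0), from 4.22 to 31.6 in hippocampus (19.8) and from 4 to 37.6 in striatum (24.4). The regions overlapped, and the same replicate number, WT 10, was lowest in each. Fos was lower in hippocampus than in prefrontal cortex by a log2 difference of -1.91 ± 0.40 (SE, edgeR adjusted p = 1.38e-04) and lower in striatum by -1.64 ± 0.40 (adjusted p = 6.31e-04).

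Fosb, whose truncated protein outlasts Fos, ran from 9.29 to 41.0 CPM in prefrontal cortex (median 25.4), 8.21 to 17.3 in striatum (13.3) and 4.89 to 13.3 in hippocampus (8.55). The ranges overlapped, and the difference was -1.53 ± 0.24 for hippocampus minus prefrontal cortex (edgeR adjusted p = 1.85e-06). Junb, a partner that restrains Jun, ran from 40.7 to 206 CPM in prefrontal cortex (134), 34.8 to 110.2 in striatum (77.4) and 37.1 to 87.6 in hippocampus (68.3). Its ranges overlapped too, and its difference of -0.97 ± 0.26 between hippocampus and prefrontal cortex missed the size threshold.

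Jun, the main dimer partner of Fos, had the opposite pattern. It ran from 97.5 to 137 CPM in WT hippocampus (median 113), from 36.7 to 70.6 in prefrontal cortex (60.4) and from 28.8 to 46.3 in striatum (39.5). Hippocampus did not overlap either of the other regions. The log2 difference was 1.01 ± 0.10 against prefrontal cortex (edgeR adjusted p = 3.62e-10), at the edge of the size threshold, and -1.54 ± 0.10 for striatum minus hippocampus (adjusted p = 2.85e-14). Jund, Fosl2, Atf3 and Maff were called in no region contrast.

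The Egr zinc finger factors were the family with the steepest cortical excess over hippocampus: 4 of 4 were called lower in hippocampus than in prefrontal cortex, with log2 differences from -1.23 to -2.75. Egr2 ran from 2.63 to 51.6 CPM in WT prefrontal cortex (median 26.8), from 0.969 to 7.10 in hippocampus (3.20) and from 2.64 to 30.8 in striatum (14.4). Libraries of the 3 regions overlapped through low values in prefrontal cortex and striatum. Egr2 was lower in hippocampus by -2.75 ± 0.50 against prefrontal cortex (edgeR adjusted p = 2.10e-05), and 1.90 ± 0.50 higher in striatum than in hippocampus (adjusted p = 0.00157).

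Egr1, widely used as an activity marker, ran from 166 to 596 CPM in WT prefrontal cortex (median 417), from 53.4 to 164 in hippocampus (117) and from 173 to 438 in striatum (311). Its hippocampal libraries lay below every library of the other regions, by log2 differences of -1.83 ± 0.24 against prefrontal cortex (edgeR adjusted p = 1.09e-07) and 1.41 ± 0.24 for striatum minus hippocampus (adjusted p = 6.70e-06). Striatum and prefrontal cortex were not called apart for any Egr gene. Egr4 ran from 25.9 to 94.2 CPM in prefrontal cortex (median 47.8), 23.9 to 81.1 in striatum (45.8) and 14.7 to 30.4 in hippocampus (24.6), so hippocampus was low with a small overlap. Egr3 had medians of 250.5, 170.5 and 88.9 CPM in the same order of regions.

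The 3 Nr4a nuclear receptors, which act without a ligand, split. Nr4a1 had the order of Fos: 41.5 to 265 CPM in WT prefrontal cortex (median 179.5), 24.2 to 180.4 in striatum (115) and 24.7 to 79.9 in hippocampus (63.9). The ranges overlapped, with WT 10 lowest in each, and hippocampus minus prefrontal cortex was -1.54 ± 0.32 (edgeR adjusted p = 9.72e-05). Nr4a2, also known for its part in dopamine neurons, was high in hippocampus (31.8 to 75.1 CPM, median 52.5) and striatum (37.2 to 64.1, median 55.3) and low in prefrontal cortex (6.26 to 26.4, median 9.87). Prefrontal cortex did not overlap the others, and the log2 differences were 2.06 ± 0.21 for hippocampus (edgeR adjusted p = 6.88e-10) and 2.05 ± 0.21 for striatum (adjusted p = 6.12e-10). Nr4a3 ran from 74.3 to 108 CPM in hippocampus, from 20.3 to 65.4 in prefrontal cortex and from 16.4 to 35.6 in striatum. Its hippocampal libraries stood above both other regions without overlap, by 1.10 ± 0.19 against prefrontal cortex (edgeR adjusted p = 7.25e-06) and -1.84 ± 0.19 for striatum minus hippocampus (adjusted p = 1.47e-09).

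Among other transcription factors, Npas4, which is largely restricted to neurons and tracks calcium entry, ran from 10.2 to 84.2 CPM in WT prefrontal cortex (median 58.8), from 3.90 to 16.5 in hippocampus (11.6) and from 5.70 to 24.6 in striatum (16.4). It was lower in hippocampus by -2.29 ± 0.31 (edgeR adjusted p = 1.71e-07) and in striatum by -1.68 ± 0.30 (adjusted p = 1.29e-05), and the overlap came from the lowest prefrontal libraries. Klf6 was called lower in hippocampus (-1.04 ± 0.06, edgeR adjusted p = 9.23e-16), with no overlap with prefrontal cortex. Srf, which encodes the factor that drives many of these genes, was nearly level, at medians of 50.5, 45.0 and 53.8 CPM in hippocampus, prefrontal cortex and striatum. Klf2 and Klf4 were called in no contrast.

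Of the effectors, Arc, a synaptic protein that removes glutamate receptors from the membrane, ran from 50.8 to 729 CPM in WT prefrontal cortex (median 548), from 56.9 to 266 in hippocampus (178) and from 40.4 to 301 in striatum (235). The ranges overlapped, with WT 10 lowest in every region. Arc was lower in hippocampus by -1.48 ± 0.38 (edgeR adjusted p = 0.00105) and in striatum by -1.12 ± 0.37 (adjusted p = 0.00873). Nptx2, a secreted organiser of glutamate synapses, was lower than in prefrontal cortex by -1.71 ± 0.15 in hippocampus and -1.15 ± 0.15 in striatum, without overlap in either contrast (edgeR adjusted p = 3.19e-11 and 4.83e-08).

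Ptgs2, the inducible cyclooxygenase, was low in striatum: 3.63 to 7.16 CPM (median 5.6) against 18.1 to 33.2 in hippocampus (26.9) and 9.60 to 31.0 in prefrontal cortex (21.9). Striatum overlapped neither, at -2.22 ± 0.17 against hippocampus (edgeR adjusted p = 2.34e-12) and -1.97 ± 0.17 against prefrontal cortex (adjusted p = 2.75e-11). Inhba, which encodes the activin A subunit, ran the other way, from 14.5 to 24.1 CPM in striatum (median 17.6), 9.52 to 23.8 in prefrontal cortex (12.1) and 4.50 to 10.6 in hippocampus (6.17). Inhba was also lower in hippocampus than in prefrontal cortex (-1.03 ± 0.15, edgeR adjusted p = 7.68e-07). Striatum and hippocampus did not overlap for Inhba (1.49 ± 0.15, edgeR adjusted p = 7.04e-10).

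Feedback and growth regulators were mixed. Rgs2, which shortens G protein signals, was high in striatum, at 87.4 to 140.1 CPM (median 96.3) against 41.9 to 60.1 in prefrontal cortex (46.1) and 30.4 to 37.2 in hippocampus (34.3). The 3 regions did not overlap, and striatum was above hippocampus by 1.59 ± 0.07 (edgeR adjusted p = 1.31e-18) and above prefrontal cortex by 1.10 ± 0.07 (adjusted p = 1.20e-14). Dusp4, a nuclear phosphatase of MAP kinases, ran from 16.8 to 23.9 CPM in hippocampus, 6.75 to 12.6 in prefrontal cortex and 4.13 to 5.27 in striatum, again without overlap. Its differences were 1.13 ± 0.09 for hippocampus minus prefrontal cortex (edgeR adjusted p = 4.43e-13) and -2.10 ± 0.09 for striatum minus hippocampus (adjusted p = 1.54e-19).

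Dusp1, the phosphatase most often induced with Fos, had the prefrontal pattern, with 14.9 to 80.8 CPM in prefrontal cortex (median 66.8), 9.47 to 25.4 in hippocampus (18.6) and 13.2 to 36.6 in striatum (31.0). Hippocampus was lower by -1.67 ± 0.24 (edgeR adjusted p = 7.29e-07), and the ranges overlapped through the lowest prefrontal libraries. Ier2, an early nuclear protein, ran from 5.93 to 25.0 CPM in prefrontal cortex (18.5), 4.13 to 10.2 in hippocampus (5.87) and 3.28 to 6.72 in striatum (4.78). It was called lower in both (striatum -1.79 ± 0.23, edgeR adjusted p = 6.09e-08), with overlap. Btg2, an antiproliferative factor, ran from 7.89 to 68.9 CPM in prefrontal cortex (36.2), 12.5 to 32.4 in hippocampus (19.6) and 7.01 to 23.8 in striatum (14.7). The ranges overlapped, and Btg2 was called between striatum and prefrontal cortex alone (-1.26 ± 0.28, edgeR adjusted p = 2.41e-04). Ier3 and Ier5 were called lower in hippocampus than in prefrontal cortex (-1.28 ± 0.08 and -1.01 ± 0.12), and Dusp5 lower in striatum than in hippocampus (-1.13 ± 0.18). Gadd45b and Sik1 were called in no contrast.

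Libraries of 10 against 10 did not overlap for 10 of 34 genes between hippocampus and prefrontal cortex, where 28.0% of all tested genes did not. For hippocampus and striatum the count was 9 (27.5% of all genes) and for prefrontal cortex and striatum 8 (33.2%). The counts of the set are thus near the share over all genes. The replicate number as a block left the count at 20 for hippocampus and prefrontal cortex and gave 8 for striatum and prefrontal cortex, where Fosb, Arc and Dusp1 came just under the size threshold at -0.92, -0.97 and -0.96. In KO mice Nr4a3 (0.96) and Dusp4 (0.78) were under it for hippocampus minus prefrontal cortex. Jun against prefrontal cortex fell under the size threshold with DESeq2 (0.99), with RLE size factors, with other filters, and without WT 1, 2, 5, 6 or 10 (0.96 to 0.98). Other genes near the size threshold also lost the call without 1 WT number, which took out its library in all 3 regions. In hippocampus minus prefrontal cortex these were Ier5 without WT 3, 9 or 10 (down to -0.95) and Inhba without WT 2 (-0.96). In striatum minus prefrontal cortex they were Fosb without WT 3, 6 or 8 (-0.95) and Dusp1 without WT 8 (-0.98), and in striatum minus hippocampus Egr4 without WT 3 or 9 (0.95). Calls were also gained in such fits. Junb was called in 4 of 10 for hippocampus minus prefrontal cortex, and Dusp4 in 2 of 10 for striatum minus prefrontal cortex.

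The second comparison, KO against WT within each region, asks whether loss of Adgrl3 changed these genes. None of the 34 was called in hippocampus (0.128% of all tested genes were), prefrontal cortex (0.117%) or striatum (0.0514%) by edgeR's quasi-likelihood test, and DESeq2 called 0 in each as well. At an unadjusted p under 0.05 there were 2, 5 and 2 of the 34 in the 3 regions by either tool. Over all tested genes edgeR put 8.14%, 11.8% and 7.14% under that level. No gene had KO and WT libraries that did not overlap, as 0.0321%, 0.026% and 0.0193% of tested genes had.

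Fos itself had WT and KO medians of 19.8 and 17.2 CPM in hippocampus, 79.0 and 70.9 in prefrontal cortex, and 24.4 and 25.0 in striatum. Its KO libraries ran from 10.8 to 32.9, 39.8 to 112 and 11.1 to 39.6 CPM and overlapped the WT range in each region. The log2 differences, KO minus WT, were 0.06 ± 0.32, 0.08 ± 0.37 and 0.14 ± 0.31. Arc had WT and KO medians of 178 and 142 CPM in hippocampus, 548 and 548 in prefrontal cortex and 235 and 245 in striatum, with differences of -0.05 ± 0.25, 0.22 ± 0.36 and 0.18 ± 0.25.

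By sign alone, 23 of 34 estimates were higher in KO hippocampus, 27 in prefrontal cortex and 26 in striatum, with medians of 0.04, 0.13 and 0.08. Over all tested genes the medians were 0.00, -0.00 and 0.00. WT 10 had the lowest level of many of these genes, and without it the counts were 19, 21 and 21 and the medians 0.01, 0.06 and 0.02. Fos then stood at -0.06 ± 0.28, -0.05 ± 0.32 and 0.01 ± 0.26. Many of the 34 genes moved together between libraries, so the signs are not separate observations.

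**Figure D2:**
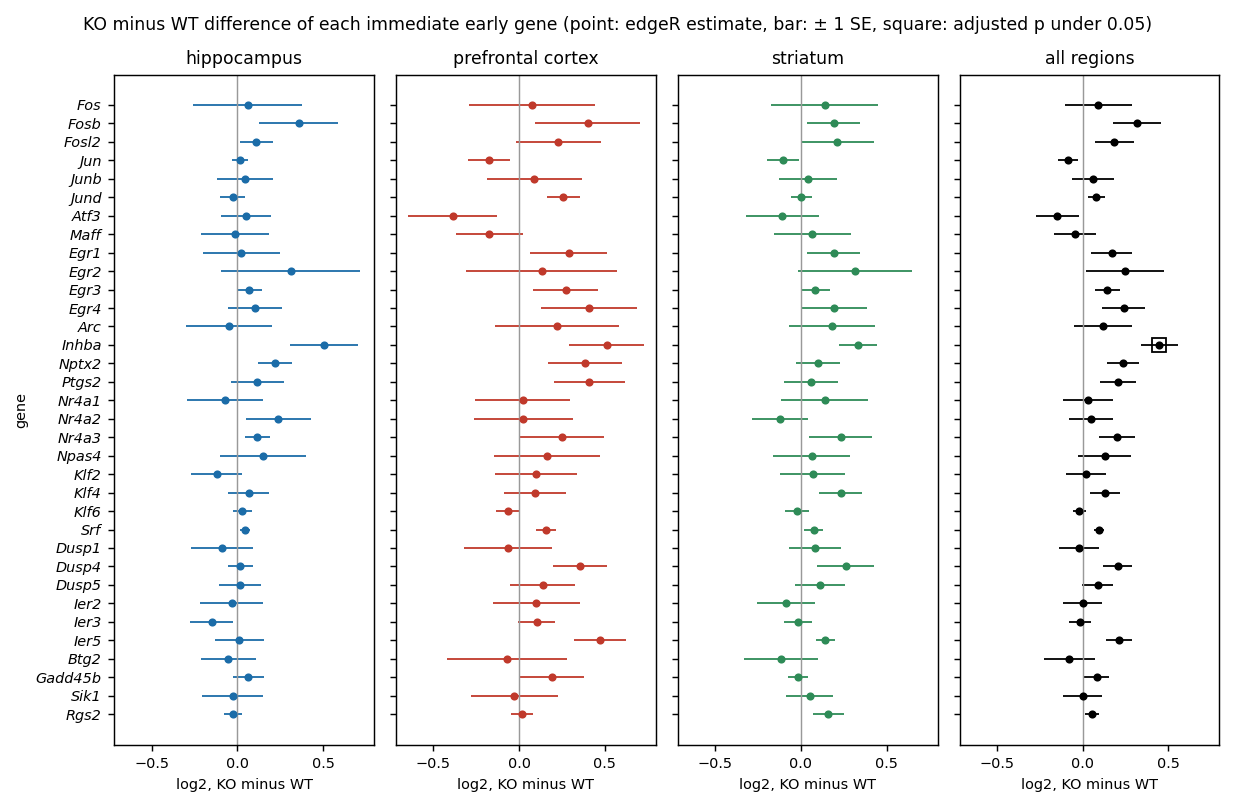
KO minus WT difference on the log2 scale for the 34 tested genes in each region and over all regions, as edgeR estimates with bars of 1 standard error. A square marks the single gene with an adjusted p under 0.05, Inhba over all regions.

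In hippocampus the 5 genes of smallest p were Inhba, Nptx2, Nr4a3, Fosb and Srf. Inhba ran from 4.50 to 10.6 CPM in WT (median 6.17) and from 5.10 to 14.35 in KO (7.55), a difference of 0.51 ± 0.20 (edgeR adjusted p = 0.528). Nptx2 ran from 19.6 to 29.4 CPM in WT (22.9) and from 20 to 34 in KO (27.0), at 0.22 ± 0.10 (adjusted p = 0.596). The ranges of both overlapped. Nr4a3 (0.12 ± 0.07), Fosb (0.36 ± 0.23) and Srf (0.04 ± 0.03) had adjusted p from 0.696 to 0.726.

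In prefrontal cortex they were Ier5, Srf, Jund, Inhba and Dusp4. Ier5, a partner of heat shock factor, ran from 59.5 to 115 CPM in WT (median 83.2) and from 74.8 to 188 in KO (112), and 9 of 10 KO libraries lay above the WT median. Its difference of 0.47 ± 0.15 had an edgeR adjusted p of 0.192 on the 20 libraries, and of 0.0382 in a single fit of all 60. Srf ran from 42.2 to 54.8 CPM in WT (45.0) and from 45.8 to 61.8 in KO (53.7), and 10 of 10 KO libraries were above the WT median (0.16 ± 0.06, edgeR adjusted p = 0.262). Jund (0.26 ± 0.10), Inhba (0.51 ± 0.22) and Dusp4 (0.35 ± 0.16) had adjusted p from 0.296 to 0.387. The 5 olfactory bulb markers were lower in KO prefrontal cortex (5 of 5 at an unadjusted p under 0.05, median log2 difference -1.72) and 6 oligodendrocyte markers were higher (5 of 6, median 0.22), summing to 1344 to 2338 CPM in KO and 1201 to 1590 in WT. All 5 erythrocyte markers were lower at that level in prefrontal cortex (median -0.58) and in hippocampus (-0.57), and 4 of 5 in striatum (-0.31). A covariate for the olfactory bulb markers, added after the data were seen, used Eomes, Doc2g, Cdhr1 and Tbx21, without Sp8. With it 0 of the 34 genes were called and Ier5 stood at 0.35 ± 0.20 (edgeR adjusted p = 0.9999). Beyond that, the part of these markers in the prefrontal values was not tested.

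In striatum Inhba, Ier5, Klf4, Rgs2 and Dusp4 came first. Inhba ran from 14.5 to 24.1 CPM in WT (17.6) and from 17.3 to 28.6 in KO (22.8), and 9 of 10 KO libraries lay above the WT median (0.33 ± 0.11, edgeR adjusted p = 0.576). Ier5 ran from 57.8 to 73.1 CPM in WT and from 63.5 to 90.9 in KO (0.14 ± 0.06, edgeR adjusted p = 0.665). Klf4 (0.23 ± 0.12), Rgs2 (0.16 ± 0.09) and Dusp4 (0.26 ± 0.17) had adjusted p from 0.712 to 0.747.

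Over all 60 libraries with region as a term, the combined comparison that the series design names, 1 of 34 genes was called, Inhba, at 0.45 ± 0.11 (edgeR adjusted p = 0.00878). Over all tested genes 4.06% were called. In the same fit 5 of 5 erythrocyte markers were called lower in KO (median -0.48, smallest edgeR adjusted p = 3.42e-04), and their part in the value of Inhba was not tested. Inhba was also called by DESeq2 and without any one replicate number of either genotype (0.38 to 0.52, adjusted p from 0.00185 to 0.0392). That fit treats the 3 regions as separate samples. With counts summed over the regions for each genotype and number, 10 against 10, Inhba stood at 0.44 ± 0.16 (edgeR adjusted p = 0.322), 0 of 34 genes were called, and 27 genes of the whole table were.

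The next genes by p were Srf (0.09 ± 0.03, edgeR adjusted p = 0.0576), Ier5 (0.21 ± 0.08, 0.102), Nptx2 (0.24 ± 0.09, 0.137) and Dusp4 (0.20 ± 0.08, 0.161), which missed the threshold. Fos (0.09 ± 0.19), Arc (0.12 ± 0.17), Egr1 (0.17 ± 0.12), Npas4 (0.13 ± 0.15) and Nr4a1 (0.03 ± 0.15) had adjusted p from 0.473 to 0.937. The interaction of genotype and region was tested too: 0 of 34 genes were called by edgeR or DESeq2, where edgeR called 0.0248% of all tested genes. Jund and Ier5, 2 of 34, had an unadjusted p under 0.05, as 3.96% of all tested genes had.

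In each region the 4 highest KO libraries for Inhba carried the numbers 4, 8, 9 and 10. They held 10.7 to 14.35 CPM in hippocampus, 22.0 to 34.5 in prefrontal cortex and 26.1 to 28.6 in striatum. In prefrontal cortex WT 2, at 23.8 CPM, lay among them, and the other KO libraries, from 11.2 to 15.1 CPM, lay within the WT range. For Fos, KO 4, 8 and 9 were among the 5 lowest KO libraries in each region, and KO 10 was the highest in hippocampus and prefrontal cortex.

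**Figure D3:**
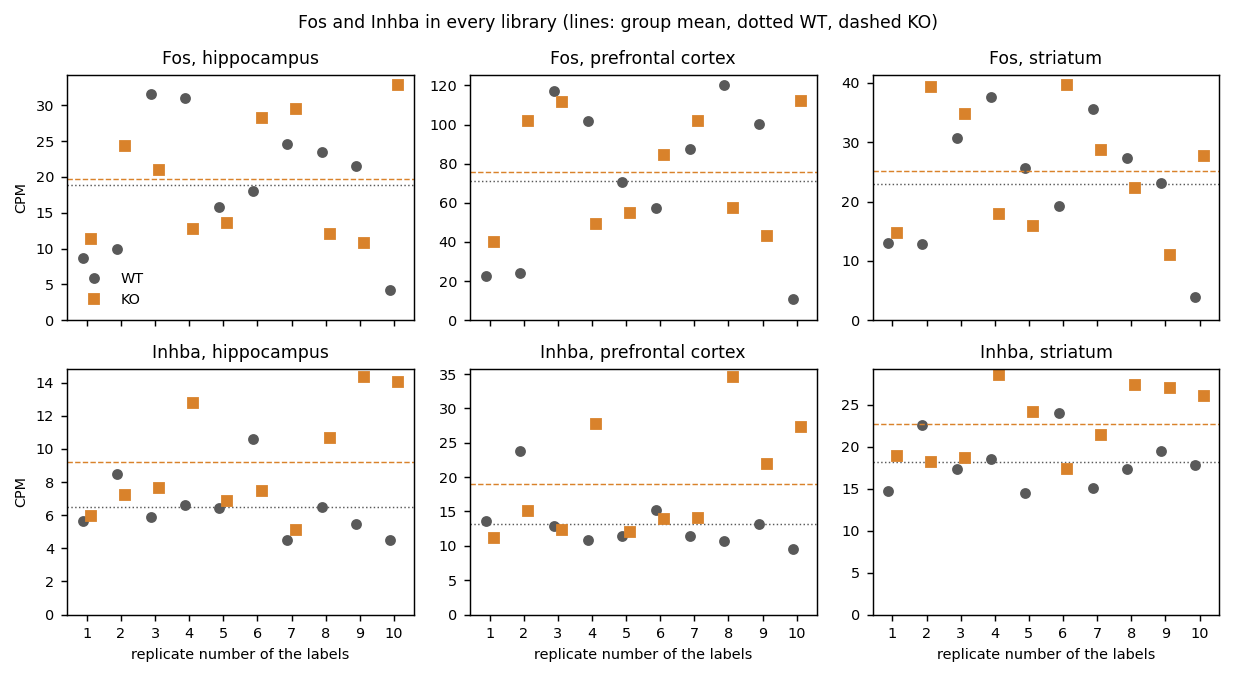
Level in CPM of Fos (top) and Inhba (bottom) in every library, by region and replicate number, with circles for WT, squares for KO and lines at the group means. Fos was lowest in WT 10 in each region, and the 4 highest KO libraries for Inhba were KO 4, 8, 9 and 10, with WT 2 among them in prefrontal cortex.

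Genes around the set were read from 2 lists. Of 36 upstream genes of the calcium, cyclic AMP and MAP kinase route to CREB, SRF and MEF2, 0 were called in any region. Those of smallest p were Rps6ka3 (0.09 ± 0.03) and Creb1 (0.11 ± 0.05) in hippocampus, Camkk2 (0.12 ± 0.04) and Mef2d (0.10 ± 0.03) in prefrontal cortex, and Rps6ka3 (0.10 ± 0.04) and Prkacb (-0.07 ± 0.04) in striatum, with edgeR adjusted p from 0.189 to 0.718. In the combined comparison, where 4.06% of all tested genes were called, 2 of 36 were called higher in KO, and neither was with summed counts: Elk3 (0.13 ± 0.04, edgeR adjusted p = 0.0386), a partner of SRF, and Rps6ka3 (0.08 ± 0.02, 0.0373), a kinase that acts on CREB. The median of the list was 0.01. Of 35 other activity-regulated genes 0 were called in a region and 1 in the combined comparison, also near the share over all genes and lost with summed counts. It was Homer1, a postsynaptic scaffold gene with an activity-induced short form, at 0.34 ± 0.08 (edgeR adjusted p = 0.0079). The median of that list was 0.04. Within a region its smallest p were those of Homer1 (0.26 ± 0.09) and Sgk1 (-0.23 ± 0.11) in hippocampus, Cebpb (0.34 ± 0.12) and Homer1 (0.48 ± 0.20) in prefrontal cortex, and Homer1 (0.28 ± 0.09) and Sorcs3 (-0.22 ± 0.10) in striatum.

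Between regions of WT mice, hippocampus differed from prefrontal cortex for 7 of the 35 other activity-regulated genes, 1 higher and 6 lower, among them Cdkn1a (-2.39), Trib1 (-1.95) and Cebpd (2.33), where 10.1% of all tested genes were called. Striatum was lower than prefrontal cortex for 7, with Nrn1 (-2.23) and Bdnf (-1.90), the growth factor gene, at the far end, and higher for 0 (11.6% of all tested genes). Of the 36 upstream genes 2 were called lower in hippocampus than in prefrontal cortex, Mef2c (-2.43) and Camkk2 (-1.33), and 0 higher. Between striatum and prefrontal cortex 1 was called in each direction, Rps6ka5 (2.09) and Mef2c (-1.83). Between striatum and hippocampus 4 upstream genes were higher and 1 lower, and 3 other activity-regulated genes higher and 5 lower (10.2% of all tested genes). The counts of upstream genes in both contrasts with prefrontal cortex were below those shares.

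Homer1 ran from 103 to 128 CPM in WT hippocampus and from 97.6 to 179.5 in KO, from 164 to 356 and from 178.5 to 527 in prefrontal cortex, and from 179.7 to 293 and from 247 to 351 in striatum. KO and WT overlapped in each region. With counts summed per genotype and number, Homer1 (0.36 ± 0.13), Elk3 and Rps6ka3 were not called, with edgeR adjusted p of 0.320, 0.348 and 0.288.

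The spread between replicate libraries was wide for these genes. The biological coefficient of variation, the spread edgeR fits beyond counting error, had a median over the 34 genes of 23.4% in hippocampus, 35.7% in prefrontal cortex and 23.95% in striatum. Over all tested genes the medians were 7.83%, 8.98% and 8.62%. In hippocampus 18 of the 34 belonged to the 10% of genes with the widest spread, in prefrontal cortex 28 and in striatum 21. Egr2 was the most variable of them in each region, at 61.4%, 67.5% and 51.1%, with Fos next at 49.0%, 56.1% and 48.3%. Srf was the steadiest in hippocampus and prefrontal cortex, at 4.94% and 9.19%, and Gadd45b in striatum at 8.73%.

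Part of that spread was shared among the genes, most in prefrontal cortex and least in hippocampus. Each library's log2 CPM was set against the mean of its genotype and region, and genes were correlated over the 20 libraries of a region. The median Pearson r over the 561 pairs of the 34 genes was 0.31 in hippocampus, 0.60 in prefrontal cortex and 0.43 in striatum. Over all pairs of 15088 genes it was 0.00, -0.00 and -0.00. An r above 0.5 was held by 25.8%, 62.6% and 41.2% of the pairs, against 4.32%, 9.61% and 5.95% of all pairs. An r under 0 was held by 20.3%, 9.45% and 11.1% of the pairs of the set. WT alone gave medians of 0.32, 0.65 and 0.45 and KO alone 0.30, 0.60 and 0.43. Without WT 10 the medians were 0.27, 0.59 and 0.35. The genes share the library, its depth and its scaling, so these values describe the libraries.

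**Figure D4:**
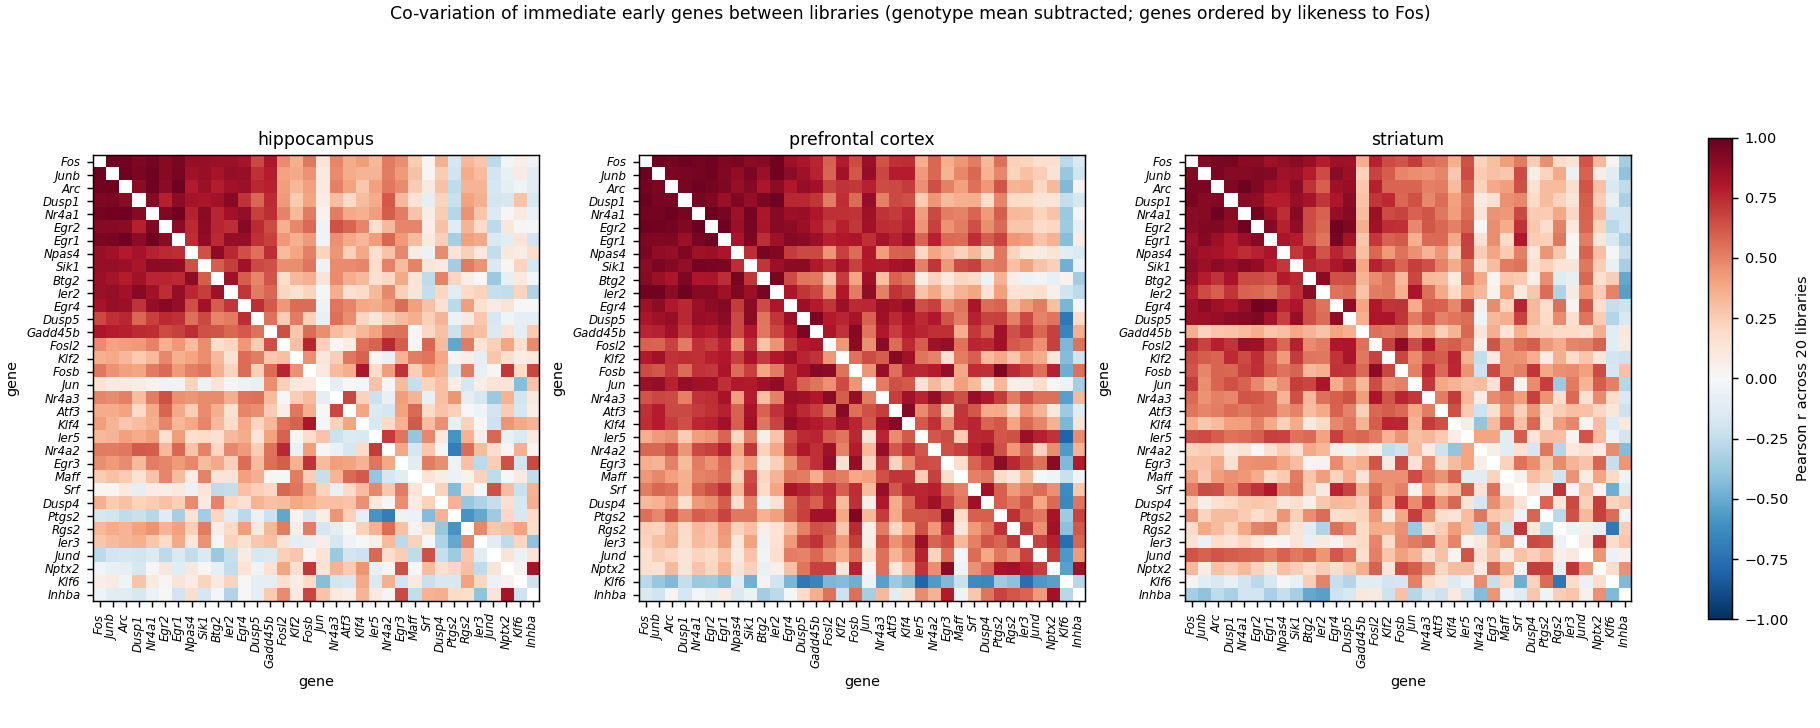
Pearson r between each pair of the 34 tested genes across the 20 libraries of a region, with the genotype mean subtracted, red for positive and blue for negative. Genes are ordered by their mean r with Fos: a block from Fos to Dusp5 is red in each region, and Klf6 and Inhba, with the lowest mean r with Fos, come last, where Inhba is red with Nptx2 and Egr3.

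Fos was taken as the reference for this shared movement. Over 15087 genes ranked by their mean r with Fos over the regions, 9 of the first 10 belonged to the set: Junb (0.96), Arc (0.95), Dusp1 (0.95), Nr4a1 (0.94), Egr2 (0.93), Egr1 (0.91), Npas4 (0.90), Sik1 (0.89) and Btg2 (0.88). The other was Cyr61, a secreted matrix protein gene from the list of other activity-regulated genes, at 0.89. Among the first 100 stood 18 of the 33 genes and 11 of the 35 other activity-regulated genes. Ier2 (0.87), Egr4 (0.84) and Dusp5 (0.77) were also near the top. Of the genes whose promoters are printed, Junb, Nr4a1, Npas4 and Dusp1 had an r with Fos from 0.87 to 0.98 over the regions.

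Some of the genes did not follow Fos. Inhba had an r with Fos of -0.03 in hippocampus, -0.14 in prefrontal cortex and -0.34 in striatum, and Klf6 0.07, -0.27 and 0.03. Jun followed Fos in prefrontal cortex (0.86) and striatum (0.70) and had an r of 0.14 in hippocampus, the region where its level was highest. Jund had -0.26, 0.16 and 0.62. Nptx2 had -0.03, 0.16 and 0.32, and Egr3, although a member of the Egr family, 0.46, 0.37 and 0.30.

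Inhba had its own company. Ranked in the same way, a step chosen after its values were seen, the nearest gene to Inhba was Homer1 (mean r 0.81; 0.83, 0.92 and 0.68 in hippocampus, prefrontal cortex and striatum), followed by Crem (0.74), a regulator at cyclic AMP response elements from the upstream list. Next came Zfp180, Rhot2, Zmynd8, Hnrnpm and Hnrnpc (0.73 to 0.72), which are in neither list nor the set. Nptx2, at rank 8, was nearest within the set (0.71), then Egr3 (0.63, rank 33) and Fosb (0.50, rank 285). Inhba and Nptx2 had an r of 0.83 in hippocampus, 0.84 in prefrontal cortex and 0.46 in striatum. In striatum Egr3 had 0.44 with Inhba and Fosb 0.29. Ier2 was at the other end of the set, at a mean r of -0.37.

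Levels were shared between regions too. The replicate numbers run from 1 to 10 in each genotype and region, and equal numbers are presumed to mark a single animal. No label states this, and a check of it is described under processing. Fos in hippocampus and Fos in prefrontal cortex of the same genotype and number had a Pearson r of 0.95 over 20 pairs, with genotype means subtracted (Spearman rho 0.88). Hippocampus and striatum had 0.92 (rho 0.86) and prefrontal cortex and striatum 0.92 (rho 0.81). Permutation tests of the numbers within genotype, with 100000 resamples and two-sided, gave p = 1e-05, 2e-05 and 1e-05 for r, of which 1e-05 is the smallest they can give. Adjusted over the 3 pairs of regions these were 1.5e-05, 2e-05 and 1.5e-05. For rho the p-values adjusted over the same pairs were 3e-05, 3e-05 and 8e-05.

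Without WT 10 and WT 1, the libraries farthest from the median, r was 0.91, 0.87 and 0.86. In WT alone it was 0.97, 0.96 and 0.94 and in KO alone 0.92, 0.84 and 0.89. Fos in WT 10 stood at 4.22 CPM in hippocampus, 10.8 in prefrontal cortex and 4 in striatum, and WT 1 and WT 2 were the next lowest WT libraries in each region. Over the 34 genes the median r between regions was 0.74, 0.69 and 0.78 for the same order of pairs, against 0.22, 0.18 and 0.30 over all 15088 genes. An r above 0.5 was held by 24, 19 and 27 of the 34 genes, and by 16.6%, 14.6% and 25.2% of all genes.

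Sik1, a kinase that restrains CREB coactivators, had 0.94, 0.89 and 0.90, and Btg2 0.92, 0.87 and 0.88. Inhba, which did not follow Fos, also kept its level between regions, at 0.77, 0.72 and 0.71. Genes with little between them were Ptgs2 (-0.10, -0.13 and 0.41), Rgs2 (0.20, -0.03 and 0.15) and Nr4a2 (0.40, 0.26 and -0.21). Jun had 0.08 and -0.13 with hippocampus as a partner and 0.58 between prefrontal cortex and striatum.

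Other measures were set against Fos, the reference for the shared level, over the 20 libraries of a region. In striatum the library total had an r of -0.60 with Fos, and the mitochondrial share -0.36. In hippocampus the same values were -0.12 and 0.12, and in prefrontal cortex -0.21 and 0.26. In prefrontal cortex the mean of 6 cortical excitatory neuron markers had an r of -0.54 with Fos, and their sum ran from 2144 to 2441 CPM over both genotypes. Oligodendrocyte markers had 0.41, 0.34 and 0.17 with Fos in hippocampus, prefrontal cortex and striatum, and microglia markers -0.35, 0.15 and -0.35. In striatum olfactory bulb markers had 0.43, erythrocyte markers -0.33 and astrocyte markers 0.30. The other marker lists lay between -0.27 and 0.22 in each region. Against the mean of the set some values were farther from 0. In striatum the mitochondrial share had -0.455 and erythrocyte markers -0.42, and in prefrontal cortex erythrocyte markers had -0.30. Others were nearer to 0, such as microglia markers in hippocampus (-0.29) and striatum (-0.27). The part of these measures in the shared level was not tested.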

How the data were processed

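RNA-seq was made from 60 libraries, 10 per genotype and region. The authors deposited raw read counts per gene. The submitters' processing notes name the GRCm38 build with STAR 2.5.2b, after cutadapt 1.16, beside FastQC 0.11.4, bedtools and DESeq2 1.16.1. The sources used here do not say whether counting used strand. Counts were tested with edgeR 4.0.16 in R 4.3.3 (TMM, filterByExpr, robust quasi-likelihood, Benjamini-Hochberg over all tested genes), with DESeq2 1.42.0 and limma 3.58.1 as alternatives. The edgeR test gives no standard error, so each SE is the absolute log2 difference divided by the square root of the F statistic. Correlations used log2 CPM with a prior count of 2. The quasi-likelihood test of edgeR was checked on simulated data. The 35 genes, the pathway and marker lists and the tests were chosen with earlier results of these data known.

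Named in detail were 12 set genes throughout and, per genotype comparison, the called genes or the 5 of smallest p, and per region contrast the 4 called genes of largest difference in each direction. Depth was 38985577 to 51387833 counts per library. Equal replicate numbers were checked over 15054 other genes: deviations of same-numbered libraries correlated at over 0.1 in 10 of 10 pairs of each genotype for hippocampus with prefrontal cortex (lowest r 0.204) and prefrontal cortex with striatum (0.189), but in 9 WT and 8 KO of 10 pairs for hippocampus with striatum. For hippocampus with striatum the equal number was the best match in 6 of 10 cases in each genotype, against 10 of 10 elsewhere. Unequal numbers there reached an r of 0.285 in WT and 0.296 in KO. No column of values was left unused.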

Additional observations from a re-analysis of the deposited data

Results flagged for a closer look

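A library is listed here where its gap to the nearest of the 10 in its group exceeded Dixon's 95% critical share of the group's range. Gap and range were taken on log2 CPM, while the values below are in CPM. Of 144 groups (24 genes by 6 groups) 9 met this, and chance gives about 1 in 20. In striatum WT 10 was low for Fos, at 4 CPM against 12.8 in the nearest library, for Arc, at 40.4 against 117, and for Jund, at 89.8 against 113. Npas4 was low in KO 9 of striatum, at 6.72 CPM against 14.1, and Ier5 was high in KO 6 of striatum, at 90.9 against 76.4. In prefrontal cortex Inhba was high in WT 2, at 23.8 CPM against 15.2, Rgs2 in WT 6, at 60.1 against 50.5, and Jund in KO 10, at 188 against 144. In hippocampus Dusp4 was high in KO 3, at 26.5 CPM against 21.6.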

How the results depend on the processing

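The number of genes of the set called between KO and WT in all regions was 1, and it was 2 with DESeq2 (Inhba and Srf), 3 with the replicate block (Inhba, Srf and Ier5), 0 with counts summed per genotype and number, and 1 to 4 without each replicate. It was 4 without KO 1, 3 without KO 5 and 2 without KO 2, WT 6, WT 8 or WT 9. In prefrontal cortex it was 0, and 1 (Ier5) in a fit of all 60 libraries. With no minimum difference, 20 genes passed between striatum and hippocampus and 26 between striatum and prefrontal cortex. Without WT 10 the uncalled KO minus WT estimates of Fos changed sign in hippocampus (0.06 to -0.06), prefrontal cortex (0.08 to -0.05) and all regions (0.09 to -0.03), and that of Egr1 in hippocampus (0.02 to -0.06), while Arc in all regions went from 0.12 to -0.00. The cause of these changes was not tested. Over the whole table the KO against WT calls were 20, 18 and 8 in hippocampus, prefrontal cortex and striatum, against 47, 214 and 25 with DESeq2 and 5, 10 and 3 with the replicate block, and 208 in prefrontal cortex with all 60 libraries. In all regions they were 649, against 1060 with the block and 27 with summed counts. Equal numbers in KO and WT did not pair the libraries (2, 3 and 2 of 10 over 0.1), and the block left 0 genes of the set called in each region. The block in all regions also joins KO and WT libraries of equal number and does not stand for an animal. Its 3 genes and 1060 calls carry that limit. Between striatum and hippocampus, where 3 of 20 pairs failed the check, the replicate block gave 9 genes in place of 10 (Egr4 at 0.98). Library totals differed by less than 1.5 times.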
